A study of Mus musculus with 18 samples.

Results

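The genes described here are 44 ribosome biogenesis genes, chosen by symbol for their roles in making ribosomes and found in the count table through their Ensembl identifiers. They are 44 of the 50600 genes in the table. By role they are 5 genes of RNA polymerase I (Pol I) transcription, 6 of nucleolar assembly, 3 of the box C/D snoRNPs, 4 of the H/ACA snoRNPs, 13 of the small subunit and 13 of the large subunit. RNA-seq counted them in FACS-purified Tregs, the Foxp3+ regulatory T cells, from 18 individual C57BL/6 mice. The question was how Tregs without CD25, the IL-2 receptor alpha chain encoded by Il2ra, differ from WT Tregs in the thymus and in the spleen.

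Thymic CD25 KO Tregs came from 5 CD25cKO mice (CD25flox/Foxp3-YFP/Cre) aged 3–4 weeks. Cre in these mice is driven by the Foxp3 locus, and they had been "cured" of autoimmunity by an injection of WT splenocytes as newborns. Their 5 age-matched WT controls were Foxp3/RFP mice, so the thymic groups also carried different Foxp3 reporter alleles, and injected splenocytes are described only for the KO mice. Splenic CD25 KO Tregs came from 4 CD25flox/Foxp3eGFP-Cre-ERT2/R26Y mice and splenic WT Tregs from 4 reporter controls. Tamoxifen was given at 7–10 weeks of age, and the cells were collected 10–14 days later. Tissue, mouse model, age and the date in the names of the count columns changed together and cannot be told apart between thymic and splenic samples.

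A ribosome is built in the nucleolus, where Pol I transcribes a long precursor rRNA. Box C/D and H/ACA snoRNPs methylate and pseudouridylate that precursor, a small-subunit processome cuts and folds the 18S part, and further factors assemble the large subunit around the remaining rRNAs. Growing and dividing cells make many ribosomes, and the transcription factor MYC is known to raise the expression of many of these genes. IL-2 signals through the transcription factor STAT5, and Myc is among the genes known to respond to it in T cells.

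Il2ra, the targeted gene, was checked first. Its level was 664, 652, 524, 682 and 544 CPM, that is, counts scaled to a common library size, in the thymic WT mice and 105, 280, 96.1, 234 and 95.9 CPM in the thymic CD25 KO mice. In the spleen it was 488–539 CPM in the WT and 168–208 CPM in the CD25 KO mice. No CD25 KO mouse reached a WT mouse, and the thymic CD25 KO mice 2 and 4 had the highest levels among the KO mice. Gene counts include reads from exons outside the floxed part of Il2ra. Total counts were 17239774–23993674 per thymic and 25258341–32639570 per splenic sample, 3 counts corresponded to at most 0.163 CPM, and the lowest count of any of the 44 genes in any sample was 20. Summed levels of 8 Treg markers were 3384–4600 CPM over all samples with none at 0. The sums hide changes of single markers. Mean Foxp3 was 503 and 297 CPM in thymic WT and KO mice and 330 and 226 CPM in splenic WT and KO mice. Ikzf2, the highest marker in each group, was at 1337 and 1800 CPM and at 1251 and 1612 CPM, in the same order. By log2 fold change, 7 of the 8 were lower and 1 higher in thymic KO mice, and 2 lower and 6 higher in splenic KO mice. Other cell types were low, with 7 B cell markers summing to 29.8–36.2 CPM in splenic WT and 38.6–48.7 CPM in splenic KO mice, and 4 NK cell markers to 4.97–8.02 and 11.1–16.4 CPM. Thymic epithelium markers, 5 of them, summed to at most 12.6 CPM, 6 erythroid markers to at most 44.6 CPM, 7 myeloid markers to at most 22.4 CPM and 2 CD8 T cell markers to at most 52.6 CPM in any sample. The 7 immature thymocyte markers summed to 182–302 CPM in thymic WT and 231–363 CPM in thymic KO mice, to at most 130 CPM in splenic WT and to 142–170 CPM in splenic KO mice, with Themis, which mature T cells also express, the highest. The part of these markers in the results was not tested.

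The DNA just before 4 of the genes is shown to give the letters behind a search for the E-box CACGTG, which MYC binds, and for TTCNNNGAA, the element that STAT5 recognises. Each is the 250 bases upstream of a RefSeq start on GRCm38.p6, plus strand, with matches to either motif in capitals. Noc2l and Polr1b were lower in CD25 KO Tregs of both tissues, Nop2 was lower in the thymus, and Rrn3 passed the test in neither tissue. The windows are chr4:156235760-156236009 for Noc2l, chr2:129100746-129100995 for Polr1b, chr6:125131633-125131882 for Nop2 and chr16:13780449-13780698 for Rrn3.
Noc2l: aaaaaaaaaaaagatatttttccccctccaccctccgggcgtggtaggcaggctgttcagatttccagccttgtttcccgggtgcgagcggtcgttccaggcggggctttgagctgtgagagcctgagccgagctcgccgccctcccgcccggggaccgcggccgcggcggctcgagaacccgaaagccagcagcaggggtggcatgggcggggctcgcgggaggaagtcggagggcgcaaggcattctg
Polr1b: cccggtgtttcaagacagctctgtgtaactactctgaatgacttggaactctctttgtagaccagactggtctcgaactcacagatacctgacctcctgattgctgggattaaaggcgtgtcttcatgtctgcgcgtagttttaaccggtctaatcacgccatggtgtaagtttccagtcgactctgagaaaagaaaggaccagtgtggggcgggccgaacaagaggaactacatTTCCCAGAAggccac
Nop2: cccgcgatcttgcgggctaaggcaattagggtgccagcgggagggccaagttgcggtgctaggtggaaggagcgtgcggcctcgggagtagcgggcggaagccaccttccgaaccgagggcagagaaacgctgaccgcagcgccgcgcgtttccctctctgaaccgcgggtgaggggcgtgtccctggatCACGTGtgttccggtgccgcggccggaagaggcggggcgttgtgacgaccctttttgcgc
Rrn3: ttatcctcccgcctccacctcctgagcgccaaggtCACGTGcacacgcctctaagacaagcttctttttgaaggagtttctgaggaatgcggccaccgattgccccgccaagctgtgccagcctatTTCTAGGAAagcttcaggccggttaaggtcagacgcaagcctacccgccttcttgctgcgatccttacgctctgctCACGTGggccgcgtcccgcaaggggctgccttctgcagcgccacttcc
Noc2l has neither motif in this window, Polr1b has TTCNNNGAA, Nop2 has CACGTG, and Rrn3 has CACGTG at 2 positions and TTCNNNGAA at 1. Both motifs read the same on either strand and do not overlap each other here. In windows that run 250 bases before to 50 after the start, CACGTG was found for 6 of the 38 members with a promoter entry, 15.8%, against 8.09% of 27025 genes and 11.6% of the 10169 genes tested in both tissues. Those members were Nop2, Pes1, Rrn3, Tsr1, Utp20 and Wdr43. TTCNNNGAA was also found for 6 of the 38, 15.8%, against 9.55% and 8.37%, and those were Nob1, Noc4l, Nop58, Polr1b, Rrn3 and Utp15. A match is a description of the letters, and no binding was measured.

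In thymic Tregs, CD25 KO mice had lower levels of 9 of the 44 genes than WT mice at a false discovery rate (FDR) below 0.01, from edgeR's quasi-likelihood test adjusted by Benjamini-Hochberg over all genes. None of the 44 was higher. Over the 16986 genes tested, 2.99% were lower and 3.17% higher. The 9 genes were Rrp1b, Polr1b, Nop2, Noc2l, Bop1, Nip7, Nop56, Ddx21 and Heatr1. The differences were small, with a median log2 fold change over the 44 genes of -0.27, or 82.7% of the WT level, and a range of -0.57 to 0.10. A value below 0 was found for 42 of the 44, against 50.3% of all genes. For 26 of the 44, no KO mouse reached the lowest WT mouse, against 9.17% of all genes. At an FDR of 0.05, 29 of the 44 were lower, against 10.9% of all genes.

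The thymic count of 9 depended on single mice. It was 5 without WT mouse 1, 1 without WT mouse 2, 2 without WT mouse 3, 2 without WT mouse 5, 1 without KO mouse 1, 2 without KO mouse 3 and 5 without KO mouse 5. The share of all genes that were lower also fell in these fits, from 2.99% to 1.85%, 1.07%, 1.45%, 1.28%, 1.24%, 1.28% and 2.74%, in the same order. Noc2l passed with any 1 mouse left out. Polr1b passed in 7 of the 10 fits with a mouse left out, Bop1 in 6, Ddx21, Nop2 and Nop56 in 4 each, Rrp1b in 2, Heatr1 in 1 and Nip7 in none. All 9 stayed below 0 in the 10 fits. Without the thymic KO mice 2 and 4, a choice made after the data were seen, 23 genes were lower and the median was -0.37, while the share of all genes that were lower was 7.07%.

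In splenic Tregs, the same test found lower KO levels for 12 of the 44 genes, and higher ones for none. Over the 17463 genes tested, 3.55% were lower and 5.9% higher. The 12 genes were Polr1b, Bysl, Fbl, Rrp1b, Rrp9, Tsr1, Nop56, Rrp12, Ppan, Dkc1, Ebna1bp2 and Noc2l. Their differences were again small, and the median log2 fold change over the 44 genes was -0.20, or 87.2% of the WT level, with a range of -0.40 to 0.02. A value below 0 was found for 43 of the 44, against 51.2% of all genes. All KO mice were under all WT mice for 27 of the 44, against 9.19% of all genes. At an FDR of 0.05, 24 were lower, against 7.03% of all genes. The count of 12 was 5 without WT mouse 3 and 5 without WT mouse 4, where 2.31% of all genes were lower in each fit. Polr1b, Nop56, Fbl and Rrp1b passed with any 1 mouse left out, Bysl and Tsr1 in 7 of the 8 fits, and Noc2l and Ebna1bp2 in 1.

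**Figure D1:**
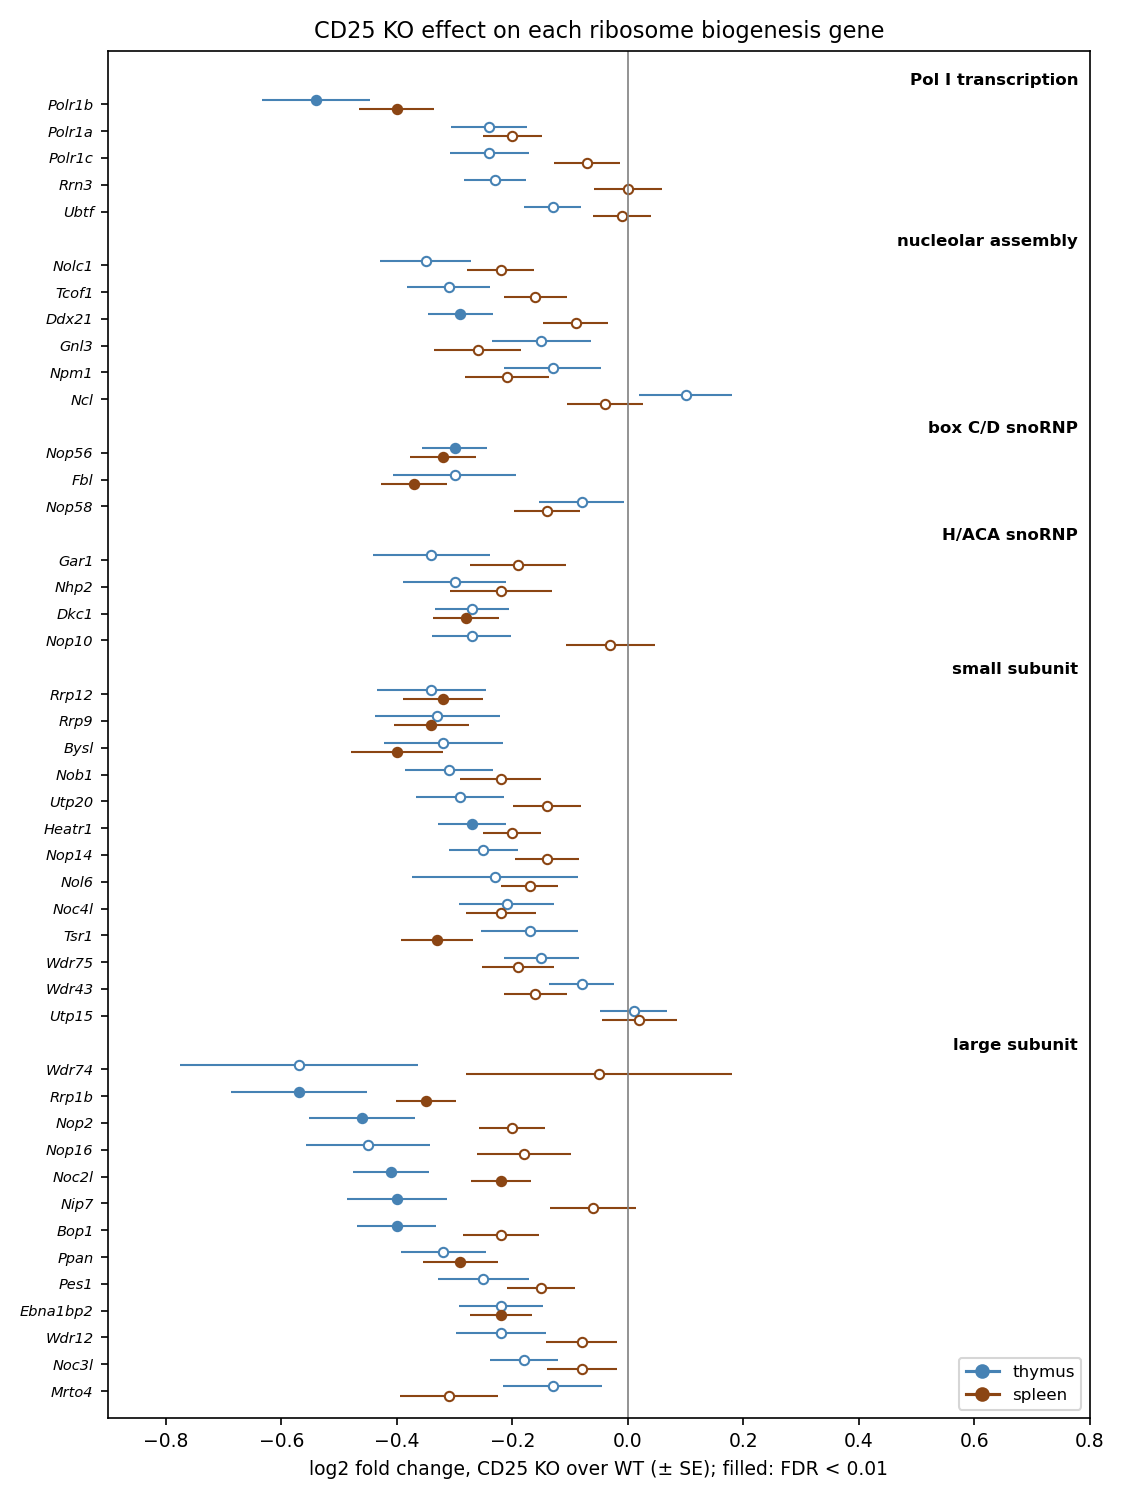
The log2 fold change of each of the 44 genes (CD25 KO over WT, horizontal axis) is plotted with its standard error, in the thymus (blue, n = 5 and 5 mice) and in the spleen (brown, n = 4 and 4 mice), grouped by role. Filled points have an FDR below 0.01, and nearly all points lie left of 0, between -0.57 and 0.10.

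Noc2l, Nop56, Polr1b and Rrp1b, 4 of the 44 genes, were lower in both tissues. They make up 44.4% of the thymic and 33.3% of the splenic calls. Among 16214 genes with a test in each tissue, 0.506% were lower in both. With a correction for GC content Nop56 lost its thymic call (-0.24, FDR 0.0111) and Noc2l its splenic call (-0.19, FDR 0.0344). With all 18 samples in 1 fit, Noc2l and Rrp1b lost their splenic calls (FDR 0.0276 and 0.0390). Of the 44, 17 passed in at least 1 tissue and 27 in neither. Log2 fold changes were below 0 in both tissues for 42 genes, against 26.2% of all genes. The mice did not overlap in either tissue for 15 genes, against 1.74% of all genes. These were Polr1a, Polr1b, Nolc1, Tcof1, Nop56, Dkc1, Heatr1, Nop14, Rrp12, Nob1, Bop1, Nop2, Noc2l, Ppan and Rrp1b. Ncl, Npm1, Nop58, Utp15, Pes1 and Wdr74 overlapped in both tissues.

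The Pol I genes carried 1 call in each tissue, and it was the same gene. Polr1b, which encodes the second-largest subunit of Pol I, was measured at 39.9, 43.4, 41.4, 45.4 and 39.9 CPM in the thymic WT mice and 28.1, 30.5, 28.3, 33.4 and 22.5 CPM in the thymic KO mice. In the spleen its level was 38.2, 39.1, 43.4 and 40.2 CPM in WT and 28.0, 32.9, 30.3 and 30.3 CPM in KO mice. All KO mice were below all WT mice of their tissue. Its log2 fold change was -0.54 (SE 0.0929, FDR 0.00356) in the thymus and -0.40 (SE 0.0651, FDR 0.000462) in the spleen. Polr1a, the largest subunit, also did not overlap between the groups but had higher FDR values. Its thymic levels were 103, 114, 117, 104 and 114 CPM in WT and 92.3, 97.8, 87.0, 101 and 81.6 CPM in KO mice (log2 fold change -0.24, FDR 0.0213). Its splenic levels were 104, 107, 111 and 106 CPM in WT and 92.7, 99.8, 91.7 and 88.9 CPM in KO mice (-0.20, FDR 0.0130).

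Rrn3 encodes the factor TIF-IA, which brings Pol I to the rDNA promoter. Its thymic levels were 62.6, 68.0, 70.1, 62.5 and 69.5 CPM in WT and 53.8, 56.7, 57.4, 55.2 and 58.3 CPM in KO mice, without overlap (log2 fold change -0.23, FDR 0.0128). In the spleen its levels overlapped, with 56.9, 59.1, 64.3 and 57.5 CPM in WT and 57.3, 64.4, 56.4 and 59.4 CPM in KO mice (FDR 0.996). Ubtf encodes UBF, the factor that binds along active rDNA. Ubtf stood at 235, 270, 251, 227 and 256 CPM in the thymic WT mice and 225, 223, 224, 222 and 226 CPM in the thymic KO mice (log2 fold change -0.13, FDR 0.0769). The KO values were close together just under the lowest WT value. In the spleen Ubtf was at 223, 238, 239 and 231 CPM in WT and 236, 240, 234 and 213 CPM in KO mice, and the groups overlapped. Polr1c, a subunit that Pol I shares with RNA polymerase III (Pol III), had log2 fold changes of -0.24 (FDR 0.0253) and -0.07 (FDR 0.475).

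Among the genes of nucleolar assembly, Ddx21 in the thymus was the only call. Ddx21 encodes an RNA helicase of the nucleolus, and its log2 fold change was -0.29 (SE 0.0558, FDR 0.00540) in the thymus and -0.09 (FDR 0.292) in the spleen. The most abundant proteins of the nucleolus are nucleolin and nucleophosmin, and neither of their genes passed in a tissue. Ncl, encoding nucleolin, was at 561, 490, 474, 492 and 466 CPM in the thymic WT mice and 476, 595, 478, 570 and 502 CPM in the KO mice. Splenic levels of Ncl were 596, 596, 613 and 618 CPM in WT and 557, 650, 518 and 630 CPM in KO mice. Its groups overlapped in both tissues, and thymic KO mice 2 and 4 had its highest thymic levels. Npm1, encoding nucleophosmin, was at 457, 437, 424, 403 and 438 CPM in thymic WT and 339, 446, 358, 439 and 361 CPM in thymic KO mice (log2 fold change -0.13, FDR 0.261). In the spleen Npm1 was at 429, 439, 488 and 461 CPM in WT and 364, 434, 342 and 424 CPM in KO mice (-0.21, FDR 0.0562). Thymic KO mice 2 and 4 lay within the WT range of Npm1, and the other thymic KO mice were below it. Nolc1, which encodes a nucleolar and Cajal body chaperone of snoRNPs, and Tcof1, the gene of treacle, a partner of UBF and Pol I, did not overlap between the groups in either tissue. Their log2 fold changes were -0.35 and -0.31 in the thymus and -0.22 and -0.16 in the spleen, at FDR values of 0.0101–0.0536. Per kilobase of summed exons, Npm1 had the highest WT level of the 44 genes (162 CPM per kb in thymic and 170 CPM per kb in splenic mice) and Wdr74 the lowest (1.03 and 0.902).

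**Figure D2:**
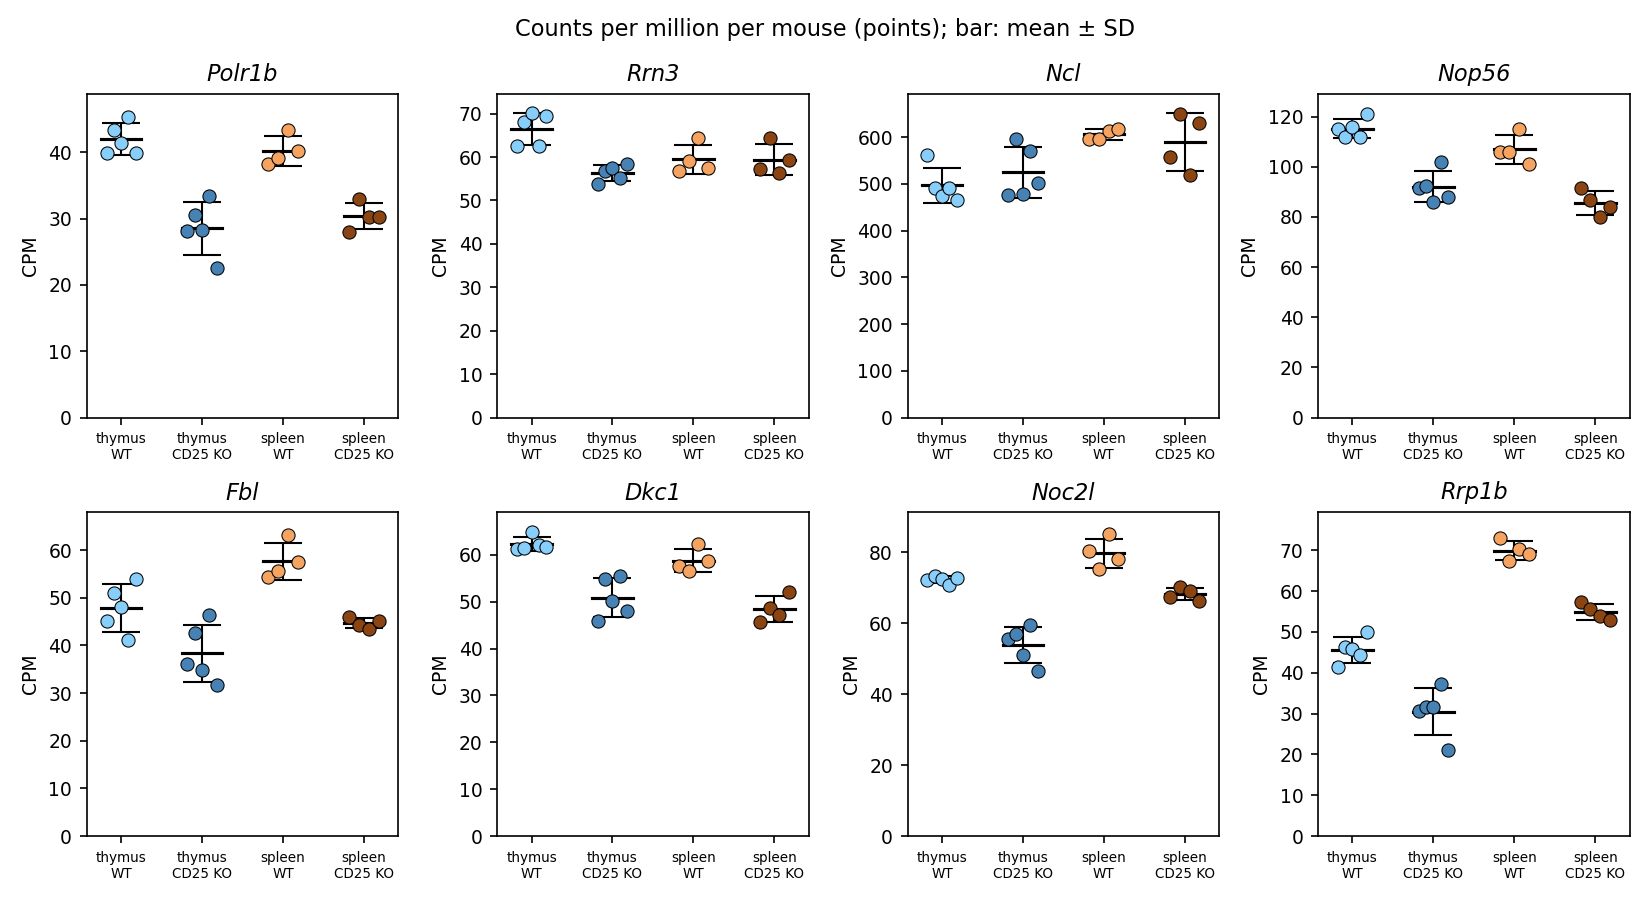
Levels of 8 of the genes in CPM (vertical axes, from 0) are shown for each mouse as points, with the mean and SD, in thymic WT and KO mice (light and dark blue, n = 5 each) and splenic WT and KO mice (orange and brown, n = 4 each). Polr1b, Nop56, Noc2l and Rrp1b separate the genotypes in both tissues, Rrn3 only in the thymus, and Ncl in neither, with thymic KO mice at 476–595 CPM and WT mice at 466–561 CPM.

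In the box C/D snoRNP, which guides 2′-O-methylation of rRNA, 2 of the 3 genes passed in the spleen and 1 in the thymus. Nop56, a scaffold protein of this particle, was at 115, 112, 116, 112 and 121 CPM in thymic WT and 91.5, 92.5, 86.1, 102 and 88.0 CPM in thymic KO mice. Splenic levels of Nop56 were 106, 106, 115 and 101 CPM in WT and 91.4, 86.7, 79.9 and 84.0 CPM in KO mice. The groups did not overlap, and the log2 fold change was -0.30 (SE 0.0557, FDR 0.00458) in the thymus and -0.32 (SE 0.0565, FDR 0.000868) in the spleen. Fbl encodes fibrillarin, the methyltransferase. In the spleen it was at 54.3, 55.6, 63.2 and 57.5 CPM in WT and 45.9, 44.2, 43.4 and 45.2 CPM in KO mice, without overlap (log2 fold change -0.37, SE 0.0576, FDR 0.000368). In the thymus Fbl overlapped, with 45.2, 51.0, 48.0, 41.2 and 54.0 CPM in WT and 36.1, 42.7, 34.9, 46.4 and 31.8 CPM in KO mice (-0.30, SE 0.106, FDR 0.0578). The 3rd gene, Nop58, encodes the partner of Nop56 and had log2 fold changes of -0.08 and -0.14, with FDR values of 0.420 and 0.105. Nop56 and Nop58 contain 5 and 4 annotated snoRNA genes in their bodies.

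H/ACA snoRNPs guide pseudouridylation, and Dkc1 encodes dyskerin, the pseudouridine synthase of the particle. In the spleen Dkc1 was at 57.6, 56.5, 62.3 and 58.8 CPM in WT and 45.7, 48.6, 47.2 and 52.1 CPM in KO mice, a log2 fold change of -0.28 (SE 0.0570, FDR 0.00308). In the thymus it was at 61.3, 61.5, 64.9, 62.2 and 61.7 CPM in WT and 46.0, 54.8, 50.1, 55.5 and 48.1 CPM in KO mice, a log2 fold change of -0.27 (SE 0.0640, FDR 0.0121). The groups did not overlap in either tissue, and the 2 changes were close in size, although only the splenic one passed. The other 3 proteins of the particle, Gar1, Nhp2 and Nop10, had log2 fold changes of -0.34, -0.30 and -0.27 in the thymus and -0.19, -0.22 and -0.03 in the spleen, and none passed.

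Of the 13 small-subunit genes, 1 passed in the thymus and 4 in the spleen. Their median log2 fold changes were -0.25 and -0.20. Bysl, the gene of bystin, which is needed for maturation of the small subunit, was at 30.6, 33.1, 31.3 and 35.5 CPM in splenic WT and 24.9, 21.8, 28.3 and 23.9 CPM in splenic KO mice (log2 fold change -0.40, SE 0.0795, FDR 0.00240). Its thymic levels were 34.0, 39.8, 39.9, 28.3 and 32.1 CPM in WT and 27.0, 26.6, 24.0, 31.8 and 28.6 CPM in KO mice, and they overlapped (-0.32, FDR 0.0425). Rrp9 encodes a protein that binds the U3 snoRNA. Its splenic levels were 26.8, 25.3, 28.9 and 28.5 CPM in WT and 21.2, 22.1, 21.9 and 21.3 CPM in KO mice, without overlap (-0.34, SE 0.0658, FDR 0.00201). In the thymus Rrp9 was at 19.1, 23.1, 25.5, 20.3 and 24.0 CPM in WT and 16.2, 20.3, 17.3, 19.4 and 14.6 CPM in KO mice (-0.33, FDR 0.0423), with overlap.

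Tsr1 and Rrp12, of late maturation and export of the small subunit, were the other splenic calls. Their log2 fold changes were -0.33 (FDR 0.00191) and -0.32 (FDR 0.00447) in the spleen and -0.17 (FDR 0.167) and -0.34 (FDR 0.0250) in the thymus. Heatr1, a processome component also needed for Pol I transcription, was the thymic call at -0.27 (FDR 0.00926), and had -0.20 (FDR 0.0126) in the spleen. Nob1 encodes the endonuclease that makes the final cut at the end of 18S rRNA, and it passed in neither tissue. Nob1 was at 30.2, 34.5, 29.7, 31.1 and 34.8 CPM in thymic WT and 22.6, 27.2, 27.1, 27.1 and 24.2 CPM in thymic KO mice (-0.31, FDR 0.0157), without overlap. Its splenic levels were 27.2, 25.4, 30.0 and 26.4 CPM in WT and 23.5, 24.7, 21.9 and 23.3 CPM in KO mice (-0.22, FDR 0.0413). Utp15, a processome subunit, was the gene with a positive value in both tissues, 0.01 (FDR 0.919) and 0.02 (FDR 0.843).

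Of the 13 large-subunit genes, 5 passed in the thymus and 4 in the spleen, with median log2 fold changes of -0.40 and -0.20. Rrp1b, a nucleolar protein of large-subunit processing, was at 41.4, 46.3, 45.7, 44.4 and 50.1 CPM in thymic WT and 30.6, 31.6, 31.5, 37.2 and 21.2 CPM in thymic KO mice. Its splenic levels were 73.0, 67.3, 70.4 and 69.0 CPM in WT and 57.3, 55.7, 54.0 and 52.8 CPM in KO mice. The groups did not overlap, and the log2 fold change was -0.57 (SE 0.118, FDR 0.00808) in the thymus and -0.35 (SE 0.0519, FDR 0.000250) in the spleen. Noc2l encodes a protein of nuclear pre-ribosome transport, and its thymic WT levels were close together at 72.3, 73.4, 72.6, 70.7 and 72.8 CPM. Thymic KO mice had 55.6, 57.0, 51.0, 59.5 and 46.6 CPM (-0.41, SE 0.0659, FDR 0.00264). In the spleen Noc2l was at 80.3, 75.2, 85.1 and 78.2 CPM in WT and 67.3, 70.1, 69.1 and 66.3 CPM in KO mice (-0.22, SE 0.0521, FDR 0.00727). No KO mouse overlapped with a WT mouse of its tissue.

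Bop1 encodes a component of the PeBoW complex, with Pes1 and Wdr12, which is needed for processing of the large-subunit rRNAs. Its thymic levels were 47.2, 51.9, 50.6, 47.2 and 49.8 CPM in WT and 37.3, 37.9, 38.7, 39.9 and 31.0 CPM in KO mice, without overlap (log2 fold change -0.40, SE 0.0686, FDR 0.00353). In the spleen it was at 49.1, 49.2, 54.3 and 56.9 CPM in WT and 41.8, 45.3, 48.8 and 43.2 CPM in KO mice (-0.22, FDR 0.0270). Its partners Pes1 and Wdr12 passed in neither tissue, with -0.25 and -0.22 in the thymus and -0.15 and -0.08 in the spleen. Nop2, which encodes an rRNA cytosine methyltransferase, was at 38.7, 48.0, 41.0, 38.8 and 46.2 CPM in thymic WT and 25.9, 32.5, 30.1, 35.1 and 28.9 CPM in thymic KO mice (-0.46, SE 0.0917, FDR 0.00635). In the spleen Nop2 was at 43.3, 42.2, 45.4 and 44.7 CPM in WT and 38.1, 40.3, 38.9 and 35.6 CPM in KO mice (-0.20, FDR 0.0240). The Nop2 groups did not overlap in either tissue. Nip7 passed in the thymus at -0.40 (FDR 0.00960), and Ppan and Ebna1bp2 in the spleen at -0.29 (FDR 0.00581) and -0.22 (FDR 0.00876). Wdr74, the least abundant of the genes, had -0.57 in the thymus with a large standard error of 0.206 (FDR 0.0630).

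Whether loss of CD25 had unequal effects by tissue was tested in a fit of all 18 samples, as the splenic minus the thymic log2 fold change. None of the 44 genes passed an FDR of 0.01 in edgeR's quasi-likelihood test, against 6.98% of 18686 genes, and 7 had an unadjusted p below 0.05, against 32.8% of all genes. DESeq2 also called none, where over all genes it called 811 negative (4.92%) and 1382 positive differences. It gave 8 of the 44 at an unadjusted p below 0.05, for which the share of all genes is not given here. The nearest were Rrn3, with a difference of 0.24 (95% interval 0.08 to 0.40, FDR 0.0426), and Nip7, with 0.35 (0.12 to 0.59, FDR 0.0466). For the 4 genes lower in both tissues the intervals were -0.16 to 0.15 for Nop56, -0.09 to 0.39 for Polr1b, 0.03 to 0.36 for Noc2l and -0.04 to 0.51 for Rrp1b. The median difference over the 44 genes was 0.10, with 33 above and 11 below 0. Over all 18686 genes, 9229 were above and 9457 below 0. The tissues are also different mouse models. Across the 44 genes the thymic and splenic log2 fold changes had r = 0.36 and rho = 0.36. Across the 16214 genes tested in both tissues rho was -0.036. Genes are not independent replicates, and these correlations are descriptions.

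**Figure D3:**
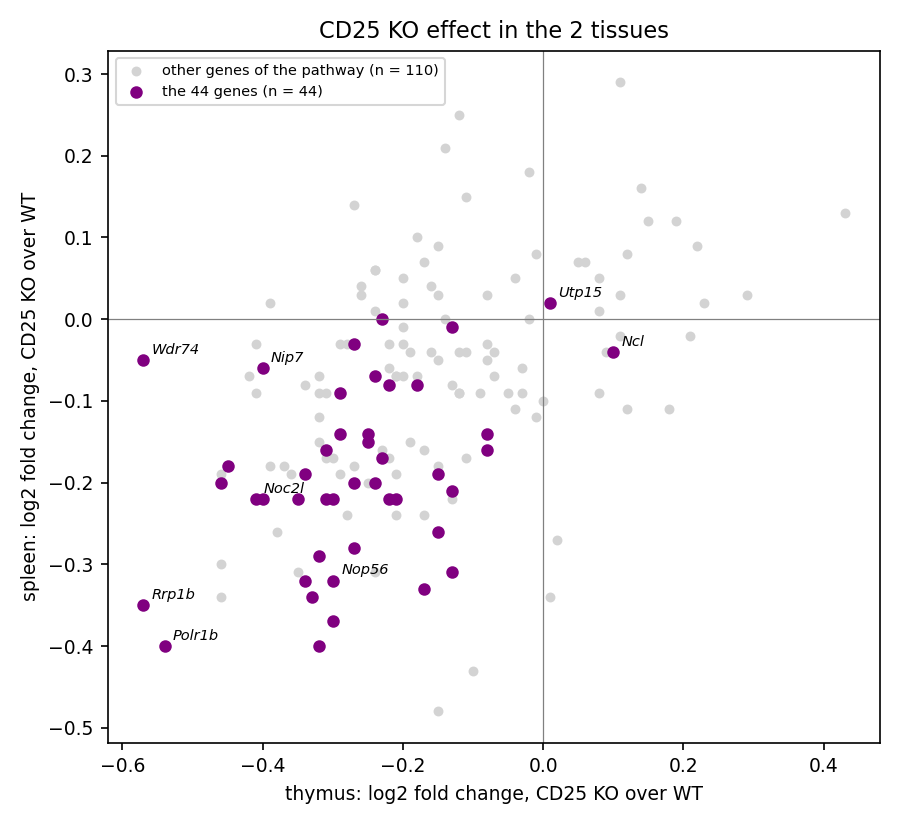
Each point is a gene, with its thymic log2 fold change (CD25 KO over WT) on the horizontal and its splenic one on the vertical axis, for the 44 genes (purple) and 110 other genes of the pathway (grey). Of the 44, 42 lie below 0 in both tissues, with Ncl and Utp15 the exceptions.

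The mean log2 CPM over the 44 genes gives a level per mouse. It was 5.60, 5.69, 5.64, 5.58 and 5.70 in thymic WT and 5.31, 5.45, 5.33, 5.46 and 5.23 in thymic KO mice. In the spleen it was 5.69, 5.67, 5.78 and 5.72 in WT and 5.52, 5.59, 5.47 and 5.52 in KO mice. KO mice were below WT mice without overlap in both tissues, by -0.29 and -0.19 on the log2 scale. No test is given for this mean, since the list was chosen with results known. Added up, the 44 genes took 3452 ± 98.4 CPM in thymic WT, 3003 ± 226 in thymic KO, 3716 ± 124 in splenic WT and 3335 ± 169 in splenic KO mice (mean ± SD, n = 5, 5, 4 and 4). In such bulk samples, fewer cells that express a gene and less RNA per cell cannot be told apart.

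Proliferation genes were measured in the same mice. The mean log2 CPM of 22 such genes was 5.41, 5.67, 6.16, 5.25 and 5.63 in thymic WT and 4.24, 5.84, 4.33, 5.72 and 3.88 in thymic KO mice, with KO mice 2 and 4 within the WT range. None of the 22 passed in the thymus by edgeR's quasi-likelihood test, where 6 had an unadjusted p below 0.05, or by DESeq2. The share of all genes at that p is not given here. All 22 had a thymic log2 fold change below 0, against 50.3% of all genes, with a median of -0.65, or 63.8% of the WT level. At an FDR of 0.05 in the edgeR test, 1 of the 22 was lower, against 10.9% of all genes. Without KO mice 2 and 4, 21 of the 22 were lower in thymic KO mice, with a median log2 fold change of -1.62, in a fit where 7.07% of all genes were lower. Those 2 mice had the highest proliferation means of the thymic KO mice, and they were left out after the data were seen. Leaving them out therefore lowers the KO levels of these genes by itself, and no conclusion is drawn from that fit. In the spleen the mean was 3.85–4.08 in WT and 4.38–4.71 in KO mice, and 15 of the 22 genes were higher in KO mice, against 5.9% of all genes. In the thymus, the 2 KO mice with the higher proliferation genes also had the higher ribosome biogenesis means, 5.45 and 5.46, still under the lowest WT mean of 5.58. The part of proliferation in the differences of either tissue was not tested. Myc was lower in both tissues, at 124 ± 6.11 CPM in WT and 63.1 ± 11.7 CPM in KO thymic mice (n = 5 each) and at 104 ± 7.52 and 51.2 ± 3.74 CPM in the spleen (n = 4 each). Its log2 fold changes were -0.96 (FDR 0.000364) and -1.02 (FDR 1.19e-07), larger than those of any of the 44 genes.

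**Figure D4:**
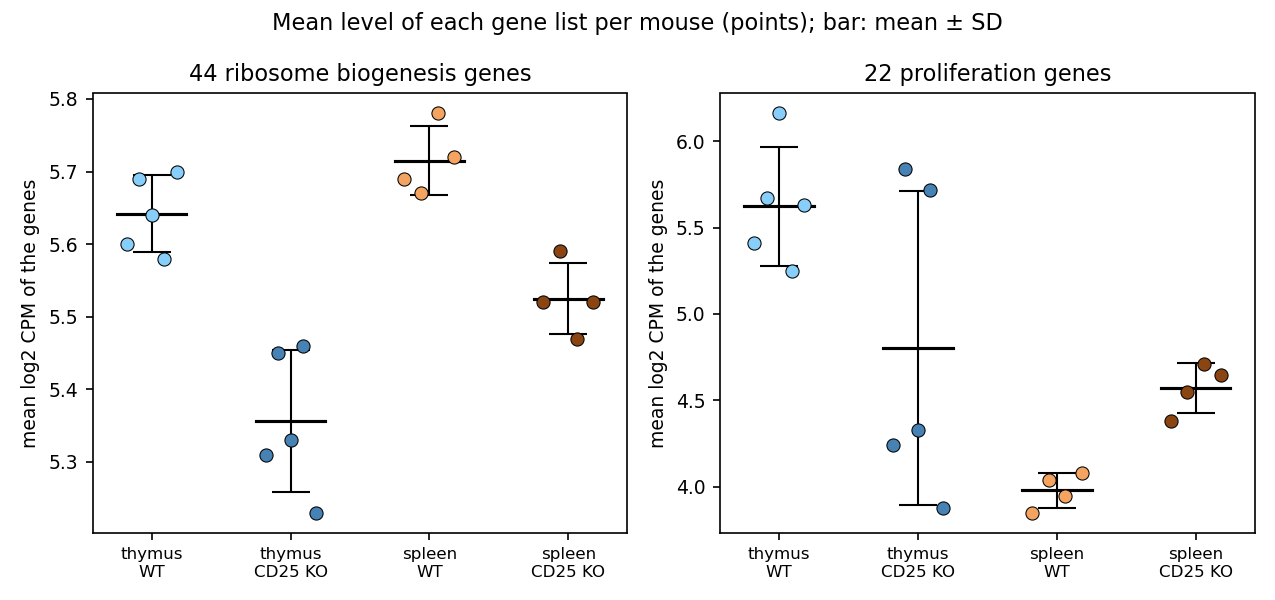
Points are mice, and the vertical axes, which do not start at 0, give the mean log2 CPM of the 44 ribosome biogenesis genes (left) and of 22 proliferation genes (right), with the group mean and SD. The ribosome biogenesis mean is lower in every KO mouse than in any WT mouse of its tissue, while the proliferation mean is higher in splenic KO mice (4.38–4.71 against 3.85–4.08) and spread over 3.88–5.84 in thymic KO mice.

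Other genes of the pathway, a list of 110 written from knowledge of it, was read in the same fits. Thymic KO mice had 7 of them lower and 1 higher, against 2.99% and 3.17% of all genes. Splenic KO mice had 6 lower and 1 higher, against 3.55% and 5.9% of all genes. The median log2 fold changes were -0.16 in the thymus and -0.06 in the spleen. DESeq2 called 26 of the thymic genes lower, and 17 were lower without thymic KO mice 2 and 4, where over all genes 7.24% and 7.07% were lower. No conclusion is drawn from the fit without those mice. Urb2 (-0.42, FDR 0.00999) and Ruvbl2 (-0.41, FDR 0.00540), of large-subunit and box C/D snoRNP assembly, changed most among the thymic genes that were lower, and Twistnb, a Pol I subunit gene, was the 1 that was higher. Nle1 (-0.48, FDR 0.000676) and Mdn1 (-0.43, FDR 1.35e-05), which act together in large-subunit maturation, changed most in the spleen. Ddx24, an RNA helicase gene, was higher there (0.25, FDR 0.00409). The KO effect differed between the tissues for 3 of the 110, against 6.98% of all genes. They were Ddx24 (splenic minus thymic difference 0.38, FDR 0.00156), Utp6 (0.31, FDR 0.00879) and, in the other direction, Mdn1 (-0.32, FDR 0.00274). Mdn1 was measured at 378 ± 10.4 and 350 ± 18.9 CPM in thymic WT and KO mice and 435 ± 7.20 and 321 ± 11.7 CPM in splenic WT and KO mice (mean ± SD, n = 5 and 4). For comparison, 7 subunit genes specific to RNA polymerase II had medians of -0.17 and 0.12 and 9 specific to Pol III had -0.09 and -0.16, with no call in either tissue by edgeR's quasi-likelihood test. At an unadjusted p below 0.05 there were 3 and 2 of the 7, and 4 and 5 of the 9, and the share of all genes at that p is not given here. DESeq2 called 1 of the 7 lower in the thymus and 1 higher in the spleen, and 1 of the 9 higher in the thymus. Over all genes DESeq2 called 1240 lower (7.24%) and 1493 higher in the thymus. In the spleen it called 819 lower (4.4%) and 1307 higher.

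Some of the counts can hold reads of other genes, since the sources used here do not state a strand setting. Exons of 16 of the 44 genes share bases with another gene annotated as protein-coding or antisense, counted without regard to strand. The longest shared stretches were 1240 bases of Tsr1 with Srr, 598 of Noc2l with Samd11 and 361 of Bysl with Ccnd3. Annotated snoRNA genes lie within 8 of the genes. The 44 genes had a GC content of 41.2–58.7%, with a median of 50.6% against 49.3% over the genes tested in the thymus. Log2 fold changes were lower for members of higher GC content, with rho = -0.57 for thymic and -0.37 for splenic values, and over all genes tested rho was -0.41 and -0.17. When GC content was corrected for, 8 genes remained or became lower in thymic KO mice, 5 of the 9 named above with Dkc1, Noc3l and Wdr12, against 2.09% of all genes, and the thymic median was -0.23. In splenic KO mice 8 of the 12 passed, against 3.46% of all genes.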

How the data were processed

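RNA-seq libraries from total RNA depleted of rRNA were made from sorted Tregs of 18 mice. The authors aligned the reads to GRCm38 with STAR 2.5.0b and counted them per gene with featureCounts 1.5.0, and they deposited raw counts in 1 table. The strand and multi-mapping settings are not given in the sources used here. Symbols, lengths, GC content and overlaps were taken from GENCODE annotation of the same build, which names 50376 of the 50600 identifiers. The 44 genes and all lists, including the markers, were chosen with earlier results of these data known.

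Within each tissue, genes were kept by filterByExpr, libraries scaled by TMM, and genotypes compared by edgeR's quasi-likelihood test (edgeR 4.0.16, R 4.3.3), with p-values adjusted by Benjamini-Hochberg over all genes. Genes at FDR below 0.01, the threshold of the study, were called. The difference between tissues was tested in 1 fit of all 18 samples, which share an estimate of the spread, and its 95% intervals are ±1.96 SE. CPM used TMM factors over all samples, and mean log2 CPM a prior count of 2. SEs came from the fold change and the F statistic. The study names DESeq2, which was run as an alternative (DESeq2 1.42.0). Alternatives were RLE and upper-quartile scaling, no filter, at least 10 counts in every sample, a GC correction, FDR 0.05, a fold of at least 1.2, all samples in 1 fit, the thymic mouse number as a block and leaving out each mouse. Per-mouse values are given for the up to 5 genes with the largest change among those called in each tissue and direction and for 11 genes that stand for the roles. Of other genes of the pathway, up to 2 per direction and tissue are named. Mice are separate animals. Floors of 3 counts cover counting error only. On simulated counts, changes of 1 on the log2 scale were called for 89% of 100 changed genes in the thymus (4 false calls among 16799 genes), 97% in the spleen (8 among 17293) and 73% for the difference (3 among 18355). The changes of the 44 genes were smaller. Promoters are from RefSeq on GRCm38.p6.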

Additional observations from a re-analysis of the deposited data

Results flagged for a closer look

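In 3 of 68 groups of named genes and mice, 1 mouse stood apart from the others of its group, about what chance gives, since it marks about 1 in 20 groups. Ncl was at 561 CPM in thymic WT mouse 1 and at 466–492 CPM in the other thymic WT mice. Dkc1 was at 64.9 CPM in thymic WT mouse 3 and at 61.3–62.2 CPM in the others. Bop1 was at 31.0 CPM in thymic CD25 KO mouse 5 and at 37.3–39.9 CPM in the other thymic CD25 KO mice. The cause was not tested.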

How the results depend on the processing

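Of the counts of called genes, medians and means under the alternatives, 103 values were rated as near the main value. Another 7 counts were rated higher, some through the looser FDR of 0.05, 14 counts lower, and 1 median moved. The rating was broad, and near values included thymic counts of 6 and 13 beside 9 and splenic counts of 8 and 16 beside 12. The 9 thymic genes (2.99% of all genes lower) became 29 at FDR 0.05 (10.9%), 21 by DESeq2 (7.24%), 26 with all 18 samples in 1 fit (8.48%), 23 without thymic KO mice 2 and 4 (7.07%, median log2 fold change -0.37), and 0 against a fold of 1.2 by edgeR's glmTreat (0.542%), where 9 had an unadjusted p below 0.05. With the thymic mouse number as a replicate block 1 gene, Polr1b, passed, and also 1 with the block and the GC correction (0.93% of all genes lower in each). Same-numbered mice had correlations of -0.185 to 0.109, and 1 KO mouse correlated best with its own number. With 5 mice a group, these correlations cannot decide whether the numbers pair the mice. Leaving out 1 mouse gave 1–13 genes in the thymus and 5–13 in the spleen. No conclusion is drawn from the fit without both thymic KO mice 2 and 4. The 12 splenic genes (3.55%) became 24 at FDR 0.05 (7.03%), 20 with upper-quartile scaling (4.4%), 3 with all 18 samples in 1 fit (1.99%) and 0 against a fold of 1.2 (0.899%), where 5 had an unadjusted p below 0.05. For the tests against a fold of 1.2, the share of all genes at that p is not given here. At FDR 0.05, 2 of the 44 genes differed between tissues. Over all 18686 genes, 1314 had a negative and 1835 a positive splenic minus thymic difference at that FDR. Upper-quartile scaling split the thymic calls over all genes into 440 lower and 808 higher, against 508 and 539. Among single named genes, 389 values kept their status, whether called or not called in the main fit. Another 15 gained a call, 52 lost a call and 8 turned direction, none of them a call. With the GC correction, log2 fold changes were 0.02 for Ubtf in both tissues and -0.03 for thymic Ncl. Leaving out 1 splenic mouse gave -0.04 to 0.04 for Rrn3 (above 0 without WT mouse 3, KO mouse 1 or KO mouse 3), -0.04 to 0.02 for Ubtf (without KO mouse 4) and -0.09 to 0.02 for Ncl (without KO mouse 3). The cause of these changes was not tested. No gene of the 44 fell under 20 counts in a sample, and 4 or 5 mice a group limit how small a difference passes.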

Other observations

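Gm26917 was chosen after its values were seen. It is a long noncoding RNA gene on chromosome 17 (39843013–39846341, GRCm38) with a GC content of 69.8%, and it ends 12 bases before Rn18s-rs5, a locus related to 18S rRNA (39846354–39848202). In thymic mice it took 10.5% ± 0.735 (WT) and 7.59% ± 1.39 (KO) of all counts (mean ± SD, n = 5 each). In splenic mice its shares were 13.4% ± 1.14 (WT) and 9.80% ± 0.736 (KO) with n = 4 each. Its log2 fold change was -0.52 (SE 0.129) in the thymus, where the FDR of 0.0160 in edgeR's quasi-likelihood test missed the threshold, and -0.50 (SE 0.0931, FDR 0.00141) in the spleen. The difference between tissues was 0.03 (FDR 0.927). The libraries were depleted of rRNA before sequencing, and how far that step sets the counts of this gene was not tested.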
